A study of Mus musculus with 6 samples.

Results

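The TCF/LEF transcription factors are a family of 4 genes in the mouse, Tcf7l2, Lef1, Tcf7 and Tcf7l1, and all 4 were found by symbol among the 23955 genes measured. They were followed in the mRNA that astrocyte ribosomes carried in 2 brain regions of adult mice, in 3 libraries of diencephalon and 3 of cortical grey matter. All libraries came from C57BL/6 mice of the same line (Slc1a3tm1(cre/ERT2)Mgoe crossed with B6N.129-Rpl22 tm1.1Psam/J and an FVB.B6-Tg(CAG-cat,-EGFP) reporter) and genotype (Slc1a3 +/- GFP+ Rpl22HA fl/fl), aged 3 months and labelled as of both sexes. Tamoxifen in corn oil was given by gavage at 9 weeks of age to all of them, so that the regions shared the recombination, the reporter and the single intact Slc1a3 allele, and no group without recombination was analysed here. The inducible Cre is driven from the locus of Slc1a3, a glutamate transporter gene of astrocytes, and switches Rpl22 to a form carrying a haemagglutinin tag, by which the ribosomes were captured. Each library pooled 3 mice. The diencephalon was taken without the tissue around the third ventricle, and the cortex without meninges and white matter. Markers of meninges and of ependyma and choroid plexus were still counted, at values given below.

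TCF/LEF proteins bind DNA through a high-mobility-group box and end the canonical Wnt pathway. Without a Wnt signal they sit with Groucho/TLE corepressors and keep target genes low; when beta-catenin escapes its destruction complex it joins them and target genes such as Axin2 are transcribed. In the adult brain Tcf7l2 is best known from neurons of the thalamus and habenula, and it also marks newly formed oligodendrocytes. Lef1 is known from thalamic neurons and brain endothelium, Tcf7 from T cells, and Tcf7l1 mainly as a repressor in stem and progenitor cells.

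Totals ran from 1733145 to 2334237 expected counts per library, and 3 counts corresponded to 1.31 to 1.86 CPM, the count scaled to a common library size. Replicate 3 of cortical grey matter was unlike its fellow libraries: counts differed from them by a chi-square of 7.48 and 6.48 per degree of freedom, while replicates 1 and 2 differed by 2.71. The summed level of 4 Y-linked genes was 8.44 CPM in diencephalon replicate 2 and 0 CPM in replicate 3 of cortical grey matter, against 145.3 to 165.7 CPM in the other libraries, which does not match the label of both sexes for every pool. With Y-linked level as a further term, Tcf7l2 had a log2 difference of 1.45 and Lef1 of 0.70 (edgeR adjusted p = 6.62e-11 and 0.00592). The precursor of ribosomal RNA, Rn45s, took 3.52% to 4.48% of counts in diencephalic libraries and 1.77% to 2.23% in cortical ones. All 20 listed astrocyte markers passed the count filter, and their summed level was 28350 to 33010 CPM in diencephalon against 37470 to 46220 CPM in cortical grey matter. Markers of neurons, oligodendrocytes and microglia were also present, at values given beside the results they accompany.

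Upstream sequences of the family show how differently the starts of the genes that rose are composed. For Tcf7l2 and Lef1 the 250 bases before the most upstream and the most downstream start in the RefSeq promoter table (build GRCm38.p6, plus strand) are printed 5′ to 3′. The libraries were mapped to mm9, so these coordinates are not those of the expression files. Capitals mark the core letters bound by TCF/LEF proteins, searched on both strands as CTTTGAT and CTTTGAA and as CTTTGTT and CTTTGTA, none of which can overlap another on the same strand.
Tcf7l2 upstream start, chr19:55741560-55741809: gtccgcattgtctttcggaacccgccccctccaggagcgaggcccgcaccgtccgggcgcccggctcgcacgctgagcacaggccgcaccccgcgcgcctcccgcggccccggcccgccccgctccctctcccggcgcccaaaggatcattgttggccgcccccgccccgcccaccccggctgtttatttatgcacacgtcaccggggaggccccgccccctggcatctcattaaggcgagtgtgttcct
Tcf7l2 downstream start, chr19:55895071-55895320: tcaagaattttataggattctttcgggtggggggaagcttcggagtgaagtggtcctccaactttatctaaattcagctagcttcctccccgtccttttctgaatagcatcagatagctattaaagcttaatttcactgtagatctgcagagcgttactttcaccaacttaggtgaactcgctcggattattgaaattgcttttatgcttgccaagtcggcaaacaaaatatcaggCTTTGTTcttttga
Lef1 upstream start, chr3:131110047-131110296: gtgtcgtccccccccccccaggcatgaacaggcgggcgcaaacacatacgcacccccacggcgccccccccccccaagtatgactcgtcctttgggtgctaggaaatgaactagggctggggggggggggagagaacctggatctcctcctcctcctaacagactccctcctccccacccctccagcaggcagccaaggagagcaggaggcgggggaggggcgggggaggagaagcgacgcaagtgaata
Lef1 downstream start, chr3:131156044-131156293: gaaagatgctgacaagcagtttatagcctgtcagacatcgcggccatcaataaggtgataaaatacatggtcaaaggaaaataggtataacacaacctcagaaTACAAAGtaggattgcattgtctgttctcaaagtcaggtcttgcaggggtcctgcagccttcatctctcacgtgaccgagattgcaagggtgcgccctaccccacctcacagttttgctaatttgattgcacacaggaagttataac

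The upstream windows were rich in G and C, at 72.8% for Tcf7l2 and 66.4% for Lef1, and the downstream windows were not, at 40.8% and 44.8%. Each downstream window held 1 match, CTTTGTT on the printed strand of Tcf7l2 and CTTTGTA on the opposite strand of Lef1, and neither upstream window held any. Of 9 windows of the 4 genes 2 held a match, against 14.8% of 32851 windows of the same length over the genome. A match is a string of letters and was not measured as a bound site.

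Of the 4 genes, 3 had enough counts for the test across all genes, and 2 of these, Tcf7l2 and Lef1, were higher in diencephalon. Of the 10568 genes tested, 14.9% were higher in diencephalon and 14.8% lower, 29.6% in either direction, at an adjusted p under 0.05 in edgeR's quasi-likelihood test. Tcf7l1 did not pass, and Tcf7 was below the count filter. The question was how the set of mRNAs on astrocyte ribosomes depends on region; because whole pools were measured, fewer cells carrying a transcript and less transcript per cell cannot be told apart.

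Tcf7l2 was the most abundant member in every library. It had 546, 582 and 524 counts in diencephalon replicates 1 to 3, or 255, 307 and 274 CPM, against 220, 213 and 160 counts in cortical grey matter replicates 1 to 3, or 96, 113 and 99.4 CPM. Every diencephalic library lay above every cortical one, as it did for 21.8% of genes tested; 42.6% were without overlap in either direction. Its mean level was 278.7 ± 26.1 CPM in diencephalon against 102.9 ± 9.23 CPM in cortical grey matter (n = 3 each, SD). The difference was 2.71-fold (95% interval 2.26 to 3.24), a log2 difference of 1.44 ± 0.13 (SE) with an edgeR adjusted p of 2.84e-08. Ranked by size of the difference, it was number 322 of the 1574 genes that were higher. A change beyond 1.5-fold was also shown for Tcf7l2 (glmTreat in edgeR, adjusted p = 6.57e-06), as for 4.58% of genes tested in this direction. In levels per transcript length, Tcf7l2 stood within the top 2.06% to 2.73% of all genes in the diencephalic libraries and within the top 9.71% to 11.5% in the cortical ones. The annotation behind the deposited values lists 8 transcripts of Tcf7l2, and the length that the authors' program estimated from their mixture was 4082 to 4101 bases in diencephalon and 4071 to 4091 bases in cortical grey matter, ranges that overlap.

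Lef1 was higher in diencephalon by a smaller factor. Its levels were 44.0, 41.1 and 39.7 CPM in diencephalon replicates 1 to 3, against 25.7, 25.0 and 26.1 CPM in cortical grey matter replicates 1 to 3. The regions did not overlap, and the spread within each was narrow, with means of 41.6 ± 2.17 CPM in diencephalon and 25.6 ± 0.543 CPM in cortical grey matter (n = 3 each, SD). The difference was 1.62-fold (95% interval 1.25 to 2.12), a log2 difference of 0.70 ± 0.20 (SE), with an edgeR adjusted p of 0.00919. It ranked 1017 of 1574, and a change beyond 1.5-fold was not shown (glmTreat in edgeR, adjusted p = 0.521). It rested on 248 counts in diencephalon and 148 in cortical grey matter. Over its 3 listed transcripts, estimated length was 3604 to 3657 bases in diencephalon against 3300 to 3597 bases in cortical grey matter. These ranges do not overlap, but the cortical estimates rest on 42 to 59 counts per library. Lengths of Tcf7l1 did not overlap either, at 2840 to 2860 against 2870 to 2874 bases. The share of all genes without overlap in length was not determined.

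Tcf7l1 had similar levels in both regions, with 20.6, 14.8 and 23.5 CPM in diencephalon replicates 1 to 3 against 22.7, 17.0 and 23.0 CPM in cortical grey matter replicates 1 to 3. These ranges overlapped almost whole, and replicate 2 was lowest in each region. The log2 difference was -0.09 ± 0.26 (SE, edgeR adjusted p = 0.827), and the interval of the fold, 0.664 to 1.33, leaves room for a difference of either sign. The sign turned without diencephalon replicate 2 (log2 difference 0.071, edgeR adjusted p = 0.889).

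Tcf7 was close to the lower limit of detection. It had 8, 7 and 6 counts in diencephalon replicates 1 to 3 against 8, 8 and 3 counts in cortical grey matter replicates 1 to 3. Over the groups this made 21 counts against 19, a ratio of 1.07 scaled to library size (exact 95% interval 0.550 to 2.11, counting error only). A difference inside that interval cannot be told from none with these counts. Of 14 T cell and lymphocyte genes in the files, 7 had no count in any library, among them Cd3e, Cd3d and Cd8a, and Cd247, which alone passed the filter, made up most of the list's sum of 79.1 to 169 CPM in diencephalon and 64.6 to 122 CPM in cortical grey matter.

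**Figure D1:**
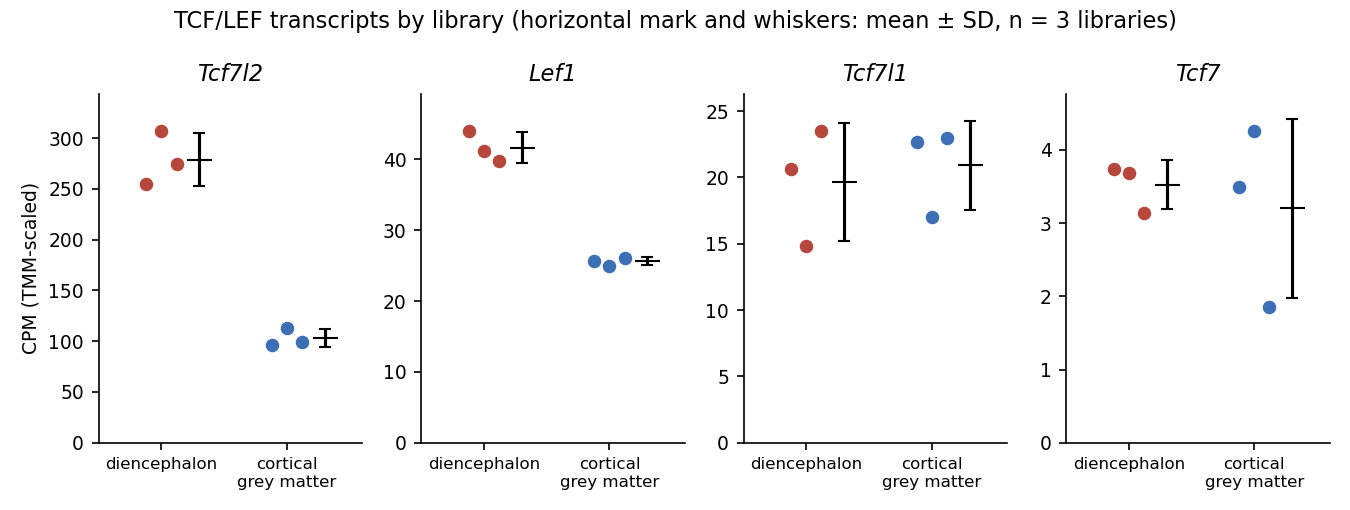
Level of each TCF/LEF gene in CPM scaled by TMM (vertical axis, from 0, with its own range in each panel) in the 3 diencephalic and 3 cortical grey matter libraries; points are libraries, and the mark with whiskers is the mean ± SD. Tcf7l2 and Lef1 do not overlap between the regions, and Tcf7l1 and Tcf7 do.

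Levels of different genes were compared in the deposited TPM, which are scaled by transcript length. In diencephalon the order was Tcf7l2 at 260 ± 27.1 TPM, Lef1 at 43.8 ± 1.68, Tcf7l1 at 26.8 ± 6.13 and Tcf7 at 6.29 ± 0.552 (SD, n = 3), and no neighbours in it overlapped. In cortical grey matter Tcf7l2 led at 83.5 ± 5.62 TPM and Tcf7 was last at 4.94 ± 1.83. Between them Lef1 at 25.1 ± 2.07 TPM and Tcf7l1 at 24.6 ± 4.37 TPM could not be ordered, since Tcf7l1 was above Lef1 in replicates 1 and 3 and below it in replicate 2.

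Within the family the balance lay more towards Tcf7l2 in diencephalon. Tcf7l2 made up 74.7% to 80.2% of the summed TPM of the 4 genes in diencephalic libraries, against 57.3% to 64.8% in cortical ones. Tcf7l1 made up 5.65% to 9.65% in diencephalon against 14.1% to 19.8% in cortical grey matter, and Lef1 12.3% to 14.4% against 16.4% to 19.2%. The summed level was 337 ± 22.8 TPM in diencephalon and 138 ± 0.365 TPM in cortical grey matter, and without Tcf7l2 it was 76.9 ± 5.06 against 54.6 ± 5.31 TPM. There were 5.18 to 6.55 Tcf7l2 transcripts per Lef1 transcript in diencephalic libraries and 2.99 to 3.96 in cortical ones. These shares and ratios are descriptions without a test.

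**Figure D2:**
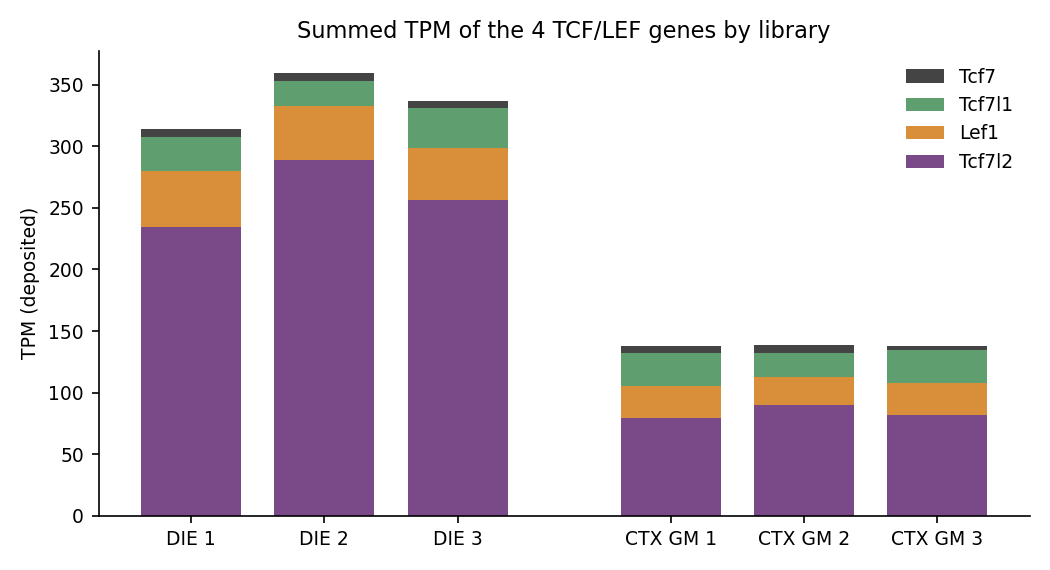
Deposited TPM of the 4 TCF/LEF genes, stacked for each library (vertical axis, from 0; DIE is diencephalon, CTX GM is cortical grey matter, numbers are replicates). The diencephalic stacks reach 314 to 360 TPM and the cortical ones 138 TPM, and the Tcf7l2 segment is the tallest in each.

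The deposited TPM gave the same calls for the 3 tested members. On the log2(TPM + 1) scale, which understates changes of low genes, the median of all genes lay at 0.22. On this scale, tested against 0, the difference was 1.62 ± 0.13 (SE) for Tcf7l2 and 0.78 ± 0.17 for Lef1 (limma adjusted p = 7.45e-05 and 0.0114), and 0.11 ± 0.24 for Tcf7l1 and 0.34 ± 0.40 for Tcf7 (limma adjusted p = 0.786 and 0.578). Relative to the median these differences lay at 1.41 for Tcf7l2, 0.57 for Lef1, -0.11 for Tcf7l1 and 0.13 for Tcf7, values that were not tested. Of the genes tested on this scale, 14.8% were higher and 6.70% lower. Without cortical grey matter replicate 3, Tcf7l2 had a log2 difference of 1.41 and Lef1 of 0.71 (edgeR adjusted p = 9.04e-11 and 0.0135).

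**Figure D3:**
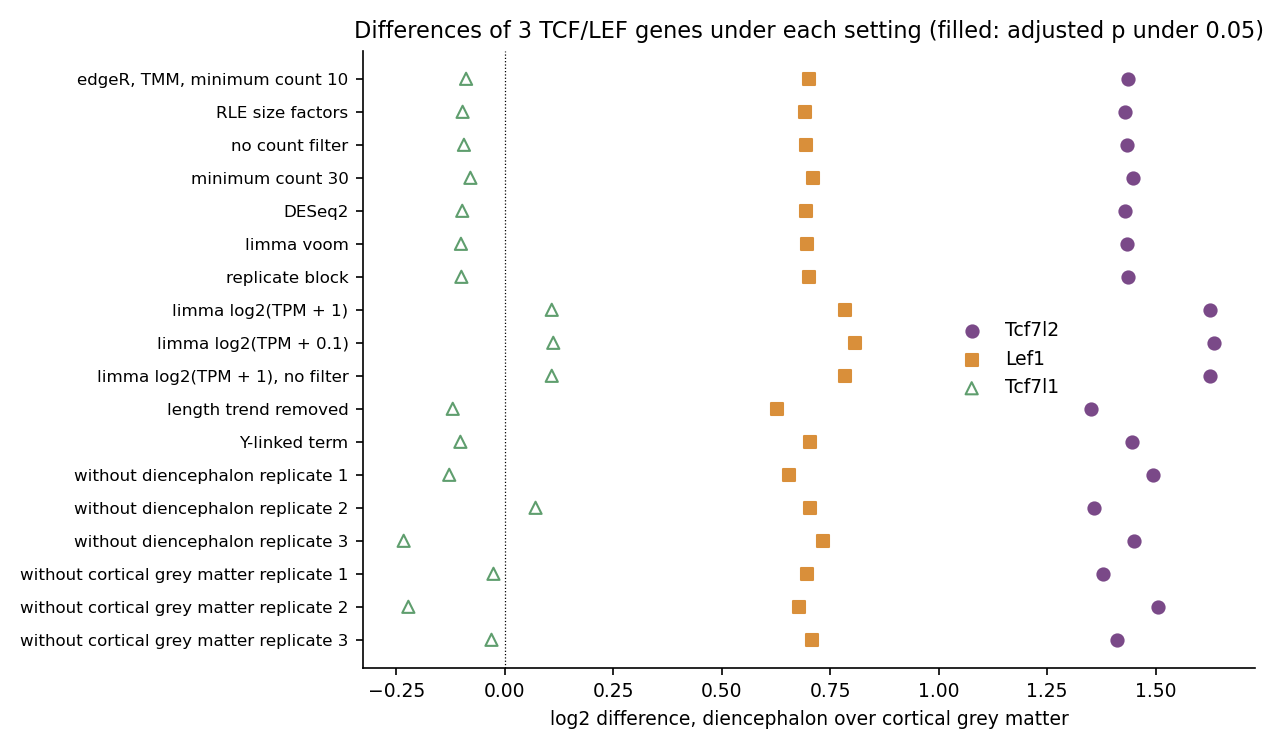
Log2 difference of diencephalon over cortical grey matter (horizontal axis) for Tcf7l2, Lef1 and Tcf7l1 under the reported test (top) and 17 alternatives (vertical axis); filled symbols have an adjusted p under 0.05. Tcf7l2 stays between 1.35 and 1.64 and Lef1 between 0.63 and 0.81, filled throughout, while Tcf7l1 lies on both sides of 0 and is filled nowhere.

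Of the partners of the family in the nucleus, few passed the test. Ctnnb1, which encodes beta-catenin, was at 190, 162 and 152 CPM in diencephalon replicates 1 to 3 against 176, 155 and 146 CPM in cortical grey matter replicates 1 to 3, overlapping ranges. Its fold was 1.05 (95% interval 0.880 to 1.26, edgeR adjusted p = 0.705). Per transcript length, Tcf7l2 was at 1.40 ± 0.245 times the level of Ctnnb1 in diencephalon and 0.544 ± 0.0778 times in cortical grey matter (SD, n = 3 each). Of 14 tested members of the list of beta-catenin and its nuclear partners, 1 was higher, 1 lower and 12 did not pass, with a median log2 difference of 0.07 against 0.01 over all genes. The member that rose was Kdm6b, a histone H3 lysine demethylase, at 444 ± 50.3 against 219 ± 28.1 CPM (edgeR adjusted p = 3.72e-06). The catenin gene Jup was lower, at 46.8 ± 5.09 against 66.0 ± 13.4 CPM (edgeR adjusted p = 0.0447), a call that was lost without any single diencephalic library (0.138, 0.0525 and 0.117), without replicate 2 of cortical grey matter (0.265) and on the TPM scale (0.343). Without cortical grey matter replicate 1, 2 genes of this list were higher and 2 lower, and without its replicate 3, 3 were higher.

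Among genes listed as corepressors and inhibitors of TCF/LEF, 1 of 17 tested was higher, 2 were lower and 14 did not pass. Hbp1 encodes an HMG-box repressor listed among the inhibitors of TCF/LEF. It was at 501 ± 29.8 CPM in diencephalon and 308 ± 53.7 CPM in cortical grey matter (1.63-fold, edgeR adjusted p = 0.000329). Nlk, a kinase that phosphorylates TCF/LEF proteins, was at 112 ± 15.1 against 290 ± 115 CPM (2.58-fold lower, edgeR adjusted p = 0.00280); cortical grey matter replicate 3 was the highest of all libraries at 421 CPM. The corepressor gene Tle1 was at 30.7 ± 6.68 against 54.1 ± 9.98 CPM (edgeR adjusted p = 0.00449), and on the TPM scale it did not pass (limma adjusted p = 0.168). Tle3, Tle4 and Aes, relatives of Tle1 on the same list, had log2 differences of -0.36, -0.29 and -0.39 that did not pass (edgeR adjusted p = 0.270, 0.124 and 0.199).

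The beta-catenin destruction complex held 3 genes that were higher, 3 that were lower and 14 that did not pass. The scaffold gene Axin1 was at 31.5 ± 1.51 against 17.8 ± 2.49 CPM (edgeR adjusted p = 0.00812), Amer1, which encodes a partner of APC, at 147 ± 8.07 against 86.6 ± 10.1 CPM (0.000193), and Apc2 at 164 ± 3.06 against 104 ± 26.6 CPM (0.00312). Gsk3a, a kinase of the complex, was lower at 72.4 ± 6.01 against 123 ± 18.5 CPM (edgeR adjusted p = 0.000550). Calls for the other genes that were lower, Apc and Ppp2r5a, were lost when some single libraries were left out, though neither gene overlapped between the regions. Apc did not pass without diencephalon replicate 1 or 2 (0.0678 and 0.0532), and Ppp2r5a, a phosphatase subunit gene, did not pass without diencephalon replicate 2 or 3 (0.0565 and 0.176) nor when replicate 1 or 2 of cortical grey matter was left out (0.0807 and 0.0881). On the TPM scale neither passed (limma adjusted p = 0.208 for Apc and 0.186 for Ppp2r5a). Without diencephalon replicate 2 the number of lower genes was 1, and without cortical grey matter replicate 3 it was 5.

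Among common Wnt target genes, more were called lower than higher in diencephalon. Axin2, a general target and feedback inhibitor, was at 53.8, 39.5 and 37.6 CPM in diencephalon replicates 1 to 3 against 52.4, 46.8 and 28 CPM in cortical grey matter replicates 1 to 3. The ranges overlapped, with a fold of 1.02 (95% interval 0.756 to 1.38, edgeR adjusted p = 0.939). Apart from Lef1, itself a listed target, 16 of the 28 non-family targets passed the count filter. Of these, 2, Cldn1 and Lgr4, were higher, 6 were lower and 8 did not pass, with a median log2 difference of -0.05. That is 12.5% higher and 37.5% lower, against 14.9% and 14.8% of all genes tested. On the TPM scale, and at a minimum count of 30, 3 were lower. Without diencephalon replicate 2 no target passed as higher, and without diencephalon replicate 3 1 did. Tnfrsf19, a receptor gene of the tumour necrosis factor family, was at 49.2 ± 12.5 against 112 ± 23.6 CPM (edgeR adjusted p = 5.28e-05), the cyclin gene Ccnd1 at 39.3 ± 11.6 against 76.0 ± 7.57 CPM (0.000642), and the transcription factor gene Jun at 14.5 ± 4.34 against 32.5 ± 3.66 CPM (0.00118). Wisp1, which encodes a matricellular protein, was at 2.69 ± 2.11 against 11.5 ± 2.96 CPM, and Cd44, an adhesion receptor gene, at 10.7 ± 3.09 against 22 ± 6.36 CPM. With 6, 9 and 1 counts in diencephalon replicates 1 to 3, Wisp1 passed the count filter through the cortical libraries alone. The call for Cd44 (edgeR adjusted p = 0.0102) was lost when diencephalon replicate 3 was left out (0.0567) and when replicate 2 of cortical grey matter was (0.0628), and on the TPM scale both were lost (limma adjusted p = 0.0539 for Wisp1 and 0.131 for Cd44). In the same libraries the summed meningeal and fibroblast markers were at 827.9 to 1246 CPM in diencephalon and 4474 to 8132 CPM in cortical grey matter. The ratio was 0.171, or 0.355 without Ptgds, although the cortex was taken without meninges. The part of these markers' cells in the lower target genes was not tested. Dkk1, Dkk4, Cdx1 and T had no count in any library.

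Among Wnt receptors and R-spondins, 6 of 20 tested genes were higher in diencephalon, 2 lower and 12 did not pass. The Frizzled receptor genes Fzd10, Fzd5 and Fzd8 were at 8.27 ± 0.714 against 1.76 ± 1.22, 21.1 ± 6.68 against 8.38 ± 3.57 and 19.3 ± 0.448 against 9.03 ± 0.983 CPM (edgeR adjusted p = 0.00279, 0.00416 and 0.00531). Fzd10 had only 7, 3 and 1 counts in cortical grey matter replicates 1 to 3. It passed the count filter through the diencephalic libraries alone. Lgr4, which encodes an R-spondin receptor, was at 170 ± 21.7 against 121 ± 19.0 CPM, and its relative Lgr6 at 24.7 ± 5.31 against 11.0 ± 6.31 CPM (edgeR adjusted p = 0.0136 and 0.0128). The Lgr4 call was lost without diencephalon replicate 2 (0.0867), and the Lgr6 call without diencephalon replicate 1 or 3 (0.0625 and 0.0552) or without replicate 1 of cortical grey matter (0.0688). On log2 TPM, Fzd5 did not pass with no filter (limma adjusted p = 0.053). Of the lower genes, Rspo1 and Rspo2, 1 passed without diencephalon replicate 2 or 3 or replicate 2 of cortical grey matter. The secreted activator gene Rspo2 was at 1.03 ± 0.557 CPM in diencephalon and 8.29 ± 1.65 CPM in cortical grey matter (edgeR adjusted p = 0.000270). With 1, 3 and 2 counts in diencephalon replicates 1 to 3, Rspo2 passed the count filter through the cortical libraries alone. Taking the 5 Wnt lists together without the family itself, 84 genes were tested, of which 14.3% were higher and 16.7% lower, close to the 14.9% and 14.8% of all genes.

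**Figure D4:**
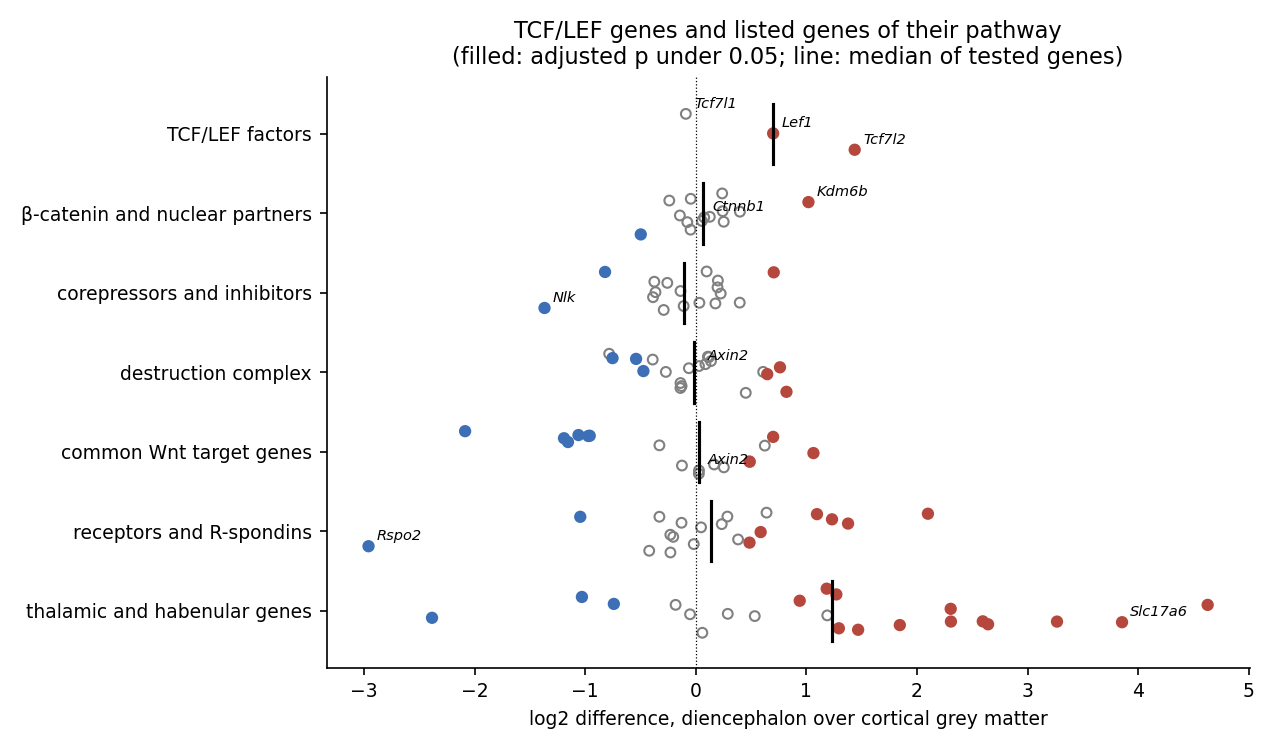
Log2 difference of diencephalon over cortical grey matter (horizontal axis) for each tested TCF/LEF gene and each tested gene of the listed groups (vertical axis; points are genes, spread vertically for legibility). Filled points have an adjusted p under 0.05, and lines are list medians, which lie between -0.11 and 0.14 for the 5 Wnt lists and at 1.23 for the thalamic and habenular genes.

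Many listed genes known from the thalamus and habenula were higher in diencephalon, as Tcf7l2 was. Of 26 listed, 22 passed the count filter, and 13 of these were higher, 3 lower and 6 did not pass, with a median log2 difference of 1.23. Of all genes tested, 14.9% were higher and 14.8% lower. Among the 13, Epha8 and Zic4 had 12 and 19 cortical counts and passed the filter through the diencephalic libraries alone. The list was drawn up with earlier results of these data known, it shares genes such as Slc17a6, Lhx9 and Rora with the thalamic neuron markers, and Gbx2, Pou4f1 and Epha1 had no cortical count. Slc17a6, the vesicular glutamate transporter gene of subcortical neurons, was at 170, 256 and 285 CPM in diencephalon replicates 1 to 3 against 15.3, 16.0 and 18.0 CPM in cortical grey matter replicates 1 to 3. No library of one region came near the other, and the log2 difference was 3.85 ± 0.20 (SE, edgeR adjusted p = 1.73e-11). The transcription factor genes Lhx9, Zfhx3, Prox1 and Foxp2 had log2 differences of 4.63 ± 0.20, 3.27 ± 0.15, 2.64 ± 0.15 and 1.29 ± 0.13, and the netrin-G gene Ntng1 had 2.31 ± 0.17 (SE, edgeR adjusted p of 1.54e-07 or less for each). Among those that were lower were Nr4a2, a nuclear receptor gene, and Nrgn, a calmodulin-binding protein gene.

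Markers of other cell types in which the family is known were set beside these differences. The summed level of 16 thalamic and habenular neuron markers was 1813 to 1920 CPM in diencephalon and 680.1 to 716 CPM in cortical grey matter, a ratio of 2.67, or 3.06 without Rora, beside the 2.71-fold difference of Tcf7l2. Of the 10 of these markers that were tested 8 were higher and none was lower, against 14.9% and 14.8% of all genes tested. Within the diencephalon these markers did not share an order of replicates. Slc17a6 was lowest in replicate 1 and highest in replicate 3. Prkcd ran the other way, at 137, 94.4 and 67.9 CPM in replicates 1 to 3, and Rora was at 786, 746 and 785 CPM. Tcf7l2 was lowest in replicate 1 and highest in replicate 2. The part of neuronal RNA in the Tcf7l2 difference was not tested.

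Newly formed oligodendrocyte markers had a sum of 978.8 to 1127 CPM in diencephalon against 926.7 to 1055 CPM in cortical grey matter, ranges that overlap, with a ratio of 1.08, or 0.93 without Nfasc. Of the 12 tested 3 were higher and 3 lower, and the defining marker Enpp6 was at 6.15 ± 1.56 against 5.74 ± 0.447 CPM. Mature oligodendrocyte markers summed to 2117 to 2902 CPM in diencephalon and 1718 to 2670 CPM in cortical grey matter, a ratio of 1.16, or 2.20 without Apod. Of these markers 9 of 12 tested were higher and 1 lower, against 14.9% and 14.8% of all genes tested. Mbp, the gene of myelin basic protein, was at 732 ± 104 against 332 ± 40.7 CPM. The part of these cells in the Tcf7l2 difference was not tested.

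For Lef1, endothelial markers were set beside the result. Their sum was 195.5 to 251.2 CPM in diencephalon against 241.6 to 284.3 CPM in cortical grey matter, a ratio of 0.809, or 0.613 without Slc2a1. Of the 7 endothelial markers tested 2 were lower and none higher. Levels within the list differed widely. Counts in diencephalon and cortical grey matter were 612 and 475 for Slc2a1, 132 and 400 for Slco1c1, and 223 and 211 for Mfsd2a. Cldn5, Esam and Tie1, among the lowest of the list, had at most 7 counts in either region. The endothelial sums overlapped between the regions. Pericyte and smooth muscle markers summed to 90.9 to 110.9 against 206.2 to 310.9 CPM, ranges that do not overlap. The part of vascular RNA in the Lef1 difference was not tested.

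Astrocyte markers set the frame for all 4 genes. Of 20 tested, 1 was higher, Slc4a4, 8 were lower and 11 did not pass, beside 14.9% higher and 14.8% lower of all genes tested. Slc1a3 was at 720, 739 and 783 CPM in diencephalon replicates 1 to 3 against 1140, 1260 and 743 CPM in cortical grey matter replicates 1 to 3. The sum of the list was 0.705 times as high in diencephalon, or 0.797 times without Slc1a2. Tcf7l2 and Lef1 were higher where this sum was lower, and the part of that in their differences was not tested. Ependymal and choroid plexus markers, at 142.2 to 173 against 6.21 to 37.8 CPM, were higher in diencephalon. Their ratio was 7.21, or 4.58 without Ttr, although tissue around the third ventricle was left out. Inhibitory neuron markers summed to 239.9 to 272.6 against 174.1 to 231.7 CPM, a ratio of 1.24, or 0.676 without Gad2. Microglia markers, at 370 to 664.9 against 509.6 to 1142 CPM, overlapped, and those of oligodendrocyte progenitors, at 280.1 to 303.2 against 329.8 to 383.3 CPM, and cortical excitatory neurons, at 795.4 to 1135 against 5201 to 6149 CPM, were lower.

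**Figure D5:**
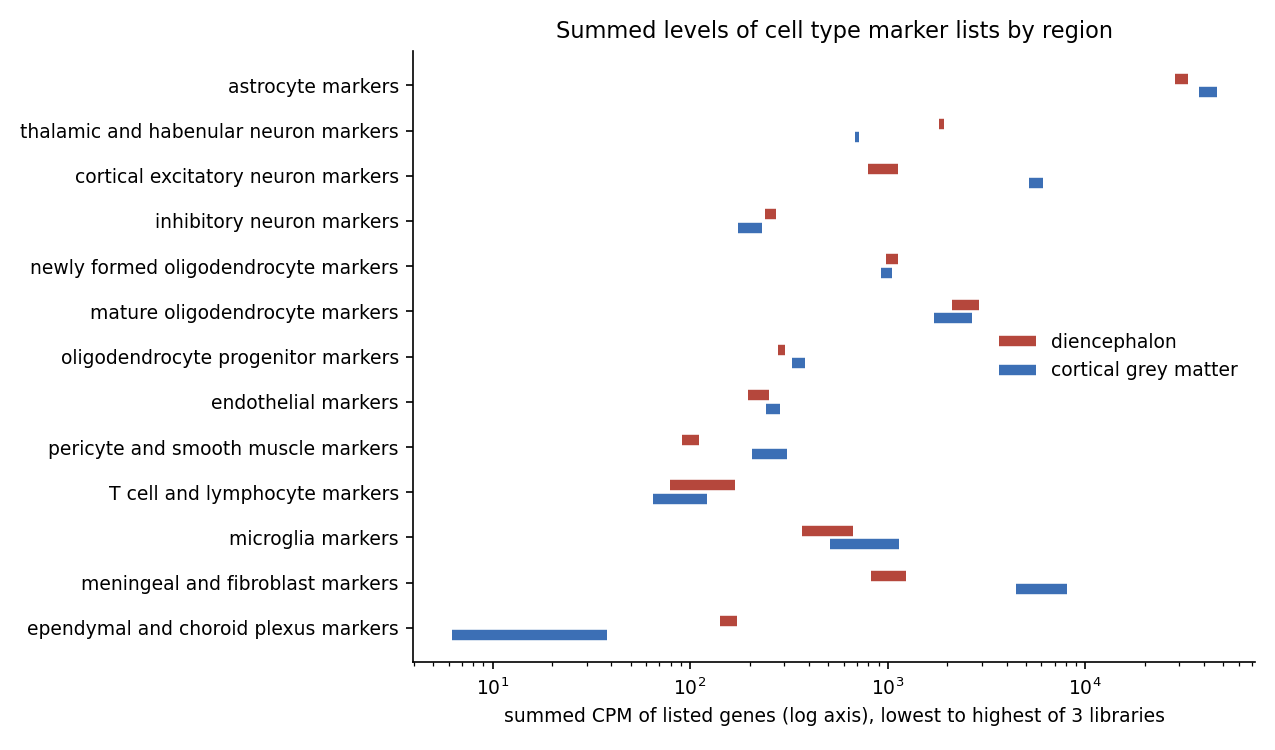
Summed CPM of 13 lists of cell type markers (horizontal log axis) in diencephalon and cortical grey matter; each bar runs from the lowest to the highest of 3 libraries. Thalamic and habenular neuron markers lie apart and higher in diencephalon, while those of newly formed oligodendrocytes overlap and those of pericytes lie lower.

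Genes whose profile over the 6 libraries was most like that of a family member were found by the root mean square difference of log2 CPM, centred on each gene's mean, over 8768 other genes with at least 10 CPM on average. For Tcf7l2 these were Heph, a copper-dependent ferroxidase gene, Zfp423, a zinc finger transcription factor gene, Vat1, Nedd1 and Traf4, with differences of 0.0945 to 0.124 against a median of 0.751 over all genes. Zfp423 was at 243 ± 30.8 CPM in diencephalon and 98 ± 3.79 CPM in cortical grey matter. For Lef1 they were Tnrc18, Spns2, Cplx1, Mtus1 and Xkr4, at 0.0566 to 0.0728 against a median of 0.421, and for Tcf7l1 Cep120, Las1l, Gne, Glb1 and Trappc8, at 0.0451 to 0.101 against a median of 0.373. Lef1 itself ranked 540 in likeness to Tcf7l2, and Tcf7l1 ranked 5463. Most of this likeness for Tcf7l2 and Lef1 is the difference between regions, which many genes share.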

How the data were processed

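Ribosome-bound mRNA was measured in 6 libraries, 3 per region, each from a pool of 3 mice; cDNA was amplified and sequenced on an Ion Proton, per the labels' protocols. RSEM and build mm9 are named in the submitters' processing notes; which aligner, versions and strand setting applied is not given in the sources used here. The deposited expected counts are RSEM estimates, 3.64% to 3.99% of which were not whole. The authors' TPM and FPKM take gene length and sequencing depth into account. The deposited lengths, other values of the same files, average over estimated transcript shares.

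Expected counts were rounded. Genes passed edgeR's filterByExpr at a minimum count of 10, were scaled by TMM and fitted with region as the only term by edgeR's robust quasi-likelihood test (edgeR 4.0.16, limma 3.58.1, DESeq2 1.42.0, R 4.3.3), with Benjamini-Hochberg adjustment over all 10568 genes at 0.05. SEs come from the F statistic, and fold intervals are normal 95% intervals from them. No molecular identifiers are mentioned, so exact count intervals and floors of 3 counts cover counting error only. Replicates are separate pools of mice, so p-values measure the spread between these pools. Members, lists, tests and alternatives were chosen with earlier results of these data known. Named genes were the 4 members, Ctnnb1, Axin2, up to 6 called genes per pathway list with the smallest adjusted p, the 3 most abundant markers per cell type list, markers at 0 and the 5 most alike genes; further genes were picked with values in view. The alternatives comprised RLE factors, no filter, a minimum count of 30, DESeq2, limma voom, a replicate block, limma on log2 TPM with pseudocounts of 1 and 0.1 (mean TPM of at least 1, and for a pseudocount of 1 also without that filter), a spline on gene length with 5 degrees of freedom, a Y-linked term, and leaving out each library. The scripts were tested on simulated counts of 10341 genes for this comparison: 32.3% of genes changed 1.5-fold, 58.5% changed 2-fold and 100% changed 4-fold were recovered, and 8 of 10145 unchanged genes were called. Replicate numbers were not stated to pair the regions.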

Additional observations from a re-analysis of the deposited data

How the results depend on the processing

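Across the 17 alternatives Tcf7l2 and Lef1 remained past the threshold as higher in diencephalon (log2 differences 1.35 to 1.64 and 0.63 to 0.81, adjusted p up to 0.000116 and 0.0385). Tcf7 could be fitted in 4 of them and passed in none (adjusted p 0.570 to 0.931). The log2 difference of Tcf7l1, reported as -0.09, was 0.108 with log2(TPM + 1), with and without its filter, and 0.112 with log2(TPM + 0.1); the median over all genes was 0.22, 0.21 and 0.23 on these scales. With single libraries left out it ranged from -0.233 to 0.071. Axin2 turned to -0.056 with the length trend removed and to -0.036 with the Y-linked term, and ranged from -0.187 to 0.207 over single libraries left out, Ctnnb1 from -0.024 to 0.149. With limma on the TPM scales, which change the test and the genes tested along with the scale, 958, 908 and 920 genes were lower against 1559, and 68.9%, 68.7% and 68.3% of calls were higher against 50.2%, with 10, 10 and 11 listed pathway genes lower against 17; a minimum count of 30, which tests fewer genes, gave 11. The share of Tcf7l2 was 81.0% in diencephalon and 67.3% in cortical grey matter in expected counts, which favour longer transcripts, against 77.1% and 60.4% in TPM. Of 59 other genes that were past the threshold and named by the stated rule, 47 stayed past it in every alternative that fitted them. Further genes picked with values in view, such as Cldn1, Rspo1, Nr4a2 and Nrgn, are outside this count. The replicate block changed no member's call (Lef1 edgeR adjusted p = 0.0151) and gave 1506 higher and 1531 lower genes. The labels state no pairing, so the numbers were not taken as pairs. Correlations across genes of deviations from group means, 0.06, -0.10 and 0.00 for same-numbered libraries, cannot decide this with 3 libraries per region. Y-linked levels in diencephalon and cortical grey matter were 8.44 and 149.1 CPM for replicates 2, and 165.7 and 0 CPM for replicates 3. The same pool of mice would not give such values. Depth limits Tcf7, which had 40 counts in all.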
